A study of Rattus norvegicus and Mus musculus with 24 samples.

Results

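The 40 genes described here encode the enzymes that carry glucose and fructose to pyruvate and lactate, the gate from pyruvate into the mitochondria, part of the pentose phosphate pathway, and HIF1A, a transcription factor that switches on many glycolytic genes when oxygen is low. They were taken by symbol from a list, by a rule that uses no measured value, and the list was chosen with earlier results of these data known. Of the 40, 38 had a row among the 17376 symbols of the mouse table and 36 among the 14931 symbols of the rat table, and 34 had a row in both. ALDOA and PGAM1 were not analysed here in the mouse, and HK1, PFKM, PGK1 and PGD were not analysed here in the rat. Symbols are those of human genes, as the tables give them.

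The tables hold bulk mRNA sequencing from the kidney of 4 CTNS KO and 4 CTNS WT mice on the C57BL/6 background and of 8 CTNS KO and 8 CTNS WT rats on the Sprague-Dawley background. CTNS encodes the transporter that exports cystine from lysosomes, and its loss causes the storage disease cystinosis. The labels name no treatment, controls were littermates by the methods, and the age and sex of these animals are not given in the labels. The labels name kidney cortex as the tissue and proximal tubule cells as the cell type and mention microdissected tubules, whereas the methods name cortex. The rats carry the animal numbers 17 to 32, with 4 WT and 4 KO rats among numbers 17 to 24 and again among 25 to 32; what sets these number ranges apart is not stated, and each is given on its own.

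Each mouse library held between 19309371 and 44449845 reads, and each rat library between 24684097 and 40629873. CTNS lay between 0.319 and 0.342 scaled units in KO mice and between 0.824 and 1.03 in WT mice (log2 change -0.52 ± 0.03 SE, limma adjusted p = 0.000898). In rats CTNS ranged from 16.8 to 22.2 CPM (reads scaled to library depth) in KO and from 19.2 to 27.8 in WT animals, so the ranges overlapped (log2 change -0.22 ± 0.08 SE, edgeR adjusted p = 0.0511). By number range, CTNS gave -0.11 ± 0.08 (SE, edgeR adjusted p = 0.514) in rats 17 to 24 and -0.32 ± 0.11 (adjusted p = 0.0391) in rats 25 to 32. The rat genotypes were taken from the labels. Proximal tubule markers were abundant in every library, with a summed level of 27350 to 32740 CPM in WT mice, 23040 to 25830 in KO mice, 23530 to 33960 in WT rats and 15510 to 20760 in KO rats. Of these markers 0 of 12 passed with limma in mice (3 at an unadjusted p under 0.05, 2 with edgeR and 4 with DESeq2 on recovered reads, all lower), and 8 of 10 fell in rats. Macrophage and myeloid markers summed to 187.5 to 198.8 CPM in WT mice, 269.7 to 319.1 in KO mice, 163.9 to 296 in WT rats and 264.2 to 654.6 in KO rats, and 8 of 12 rose in mice and 10 of 12 in rats. Markers of proliferating cells, lymphocytes and fibroblasts with matrix moved as well, with 6 of 6, 7 of 8 and 8 of 9 tested markers higher in KO rats. In mice 7 of 8, 0 of 10 and 5 of 10 of these markers rose; for lymphocytes 0 had an unadjusted p under 0.05, and edgeR and DESeq2 on recovered reads called 0. Over all symbols tested, 3.50% rose and 0.817% fell in mice (limma), and 15.2% rose and 12.3% fell in rats (edgeR). No measured marker of the lists named here was at 0 in all animals of a group. Levels of these markers thus differed with the genotype in rats, and in mice for some of the lists. Their part in the results below was not tested. In bulk tissue, fewer cells of a type and less RNA per cell cannot be told apart.

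Glycolysis splits glucose into pyruvate through a chain of enzymes, and several steps exist as isozymes that differ between tissues. The proximal tubule of the healthy kidney is known for making glucose from lactate and other precursors and for burning fatty acids, and it also takes up fructose. Distal segments, immune cells and dividing cells are known to lean more on glycolysis, with the isozymes PKM, LDHA and HK2.

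Several glycolytic promoters are textbook targets of HIF1A, so the letters of its core site are given first. RefSeq windows of 250 bases before and 50 bases after the gene start (rat build GRCr8) were found for 38 of the 40 genes, in 42 windows. ACGTG, on either strand, stood in 20 of the 42 member windows (47.6%) and in 19.3% of all 33469 windows. GCGTG stood in 16 of 42 (38.1%) against 29.7% of all windows. The E-box CACGTG, every copy of which also holds ACGTG, stood in 6 of 42 (14.3%) against 6.42%, and TGACNNNGC, the core of the antioxidant response element, in 7 of 42 (16.7%) against 12.1%. A match is a description of letters, not a bound site. By the rat result below, ACGTG was in the window of 1 of 3 genes that rose, 2 of 6 that fell and 13 of 22 that did not pass the test. GCGTG was in the window of 2 of 3, 1 of 6 and 12 of 22 in the same order.

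The 120 bases before the start are shown for the 3 genes that rose and 3 of the genes that fell in KO rats, each 5′ to 3′ on the gene's strand, with ACGTG and GCGTG on either strand in capitals. They are shown because these genes moved together within each set.
Ldha, chr1:106507972-106508091, plus strand: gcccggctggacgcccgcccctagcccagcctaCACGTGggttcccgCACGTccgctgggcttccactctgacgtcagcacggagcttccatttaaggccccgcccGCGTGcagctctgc
Pkm, chr8:68953515-68953634, plus strand: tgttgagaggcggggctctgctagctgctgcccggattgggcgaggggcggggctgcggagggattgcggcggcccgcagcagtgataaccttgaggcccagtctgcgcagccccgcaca
Pfkp, chr17:68639693-68639812, plus strand: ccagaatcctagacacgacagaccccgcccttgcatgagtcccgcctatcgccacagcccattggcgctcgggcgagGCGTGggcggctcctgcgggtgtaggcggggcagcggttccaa
Pklr, chr2:176841144-176841263, plus strand: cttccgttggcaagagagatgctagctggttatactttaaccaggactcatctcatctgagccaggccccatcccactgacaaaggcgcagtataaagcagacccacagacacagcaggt
Khk, chr6:31175482-31175601, minus strand: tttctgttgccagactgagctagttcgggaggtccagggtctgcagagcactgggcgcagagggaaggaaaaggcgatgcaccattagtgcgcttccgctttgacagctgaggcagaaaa
Pdk2, chr10:80483913-80484032, minus strand: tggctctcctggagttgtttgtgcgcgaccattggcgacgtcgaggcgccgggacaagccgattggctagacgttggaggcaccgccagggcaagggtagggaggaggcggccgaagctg
Ldha held CACGTG at position -87, counted from the base before the start as -1, with a further ACGTG at -73 and GCGTG at -14. Pfkp held GCGTG at -43, and the Pkm, Pklr and Khk stretches held neither. In Pdk2 a CACGTG lay further out, at -143. Of the genes that fell and are not shown, Eno1 held GCGTG at -13 and -118 and ACGTG at 39 after the start, across its windows. The windows of Pfkfb4 and Pfkfb2 held neither.

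Levels between genes were compared per length only in mice, as RPKM, recovered reads scaled to exon length and library depth, in the 4 WT animals, with exons of GENCODE vM21 (mm10). LDHB, the lactate dehydrogenase subunit of oxidative tissues, was the most abundant member at 1184 ± 118 (SD), followed by KHK at 444 ± 120, GAPDH at 441 ± 45.9 and TPI1 at 407 ± 7.18. The ranges of KHK, GAPDH and TPI1 overlapped, so their order is not resolved. LDHA stood at 258 ± 40.1, beside PDHA1 at 255 ± 16.1 and ENO1 at 254 ± 79.7, then PGK1 at 206 ± 10.6 and GPI at 199 ± 20.4.

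In most families 1 isozyme led in WT mice. HK1, the general hexokinase, stood at 37.1 ± 1.90 RPKM, against 0.346 ± 0.339 for HK2 and 0.229 ± 0.0570 for HK3, whose ranges overlapped. PKM stood at 148 ± 16.1 and PKLR, the liver and red cell pyruvate kinase, at 35.7 ± 18.2. ENO1 exceeded ENO3 at 4.50 ± 0.834 and ENO2 at 0.673 ± 0.149. The phosphofructokinases were closer together, with PFKM at 36.2 ± 1.502, PFKL at 23.2 ± 1.67 and PFKP at 17.2 ± 0.978, and their ranges did not overlap. PDK2 at 179 ± 16.2 led the pyruvate dehydrogenase kinases, with PDK1 at 17.8 ± 3.70 and PDK3 at 16.8 ± 1.95 overlapping.

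The remaining members filled the lower part of the range in WT mice. TALDO1 was at 158 ± 15.5, PDHB at 125 ± 5.12, TKT at 116 ± 12.1, PGD at 51.9 ± 9.55, PGLS at 47.5 ± 6.96, DLAT at 40.9 ± 2.40 and BPGM at 26.2 ± 3.06 RPKM. HIF1A was at 18.8 ± 2.08. Among the monocarboxylate carriers SLC16A7 at 13.5 ± 2.93 exceeded SLC16A1 at 5.37 ± 1.58 and SLC16A3 at 0.164 ± 0.0237. The enzymes that make and break fructose-2,6-bisphosphate, the activator of phosphofructokinase, were scarce, with PFKFB3 at 6.89 ± 0.985, PFKFB4 at 3.21 ± 0.517, PFKFB2 at 2.99 ± 0.332 and PFKFB1 at 1.01 ± 0.155, and ALDOC stood at 4.53 ± 1.61.

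In KO mice 1 of 38 members, ENO2, rose and 0 fell (limma, adjusted p under 0.05 over 17376 symbols). Over all symbols 4.32% passed, 3.50% higher and 0.817% lower, and 1 of 38 is 2.63%. At an unadjusted p under 0.05 the count was 4, with 1 higher and 3 lower, and on recovered reads edgeR called 1 lower and DESeq2 2 lower. The median log2 change of the members was -0.02, against 0.00 over all symbols.

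The mouse gene that passed was ENO2, the neuronal form of enolase, which lies at chr6:124760053-124769673 (mm10, minus strand). A scaled unit is the gene's reads plus 0.5 over the library's 75th percentile of reads plus 0.5. ENO2 was at 0.0883, 0.0916, 0.0703 and 0.0622 scaled units in KO mice 3, 5, 6 and 8, and at 0.0403, 0.0510, 0.0415 and 0.0286 in WT mice 1, 2, 4 and 7. All 4 KO values lay above all 4 WT values, at 84 to 119 reads in KO and 46 to 63 in WT animals. Over all symbols, 11.6% had no overlap between KO and WT mice. The log2 change was 0.05 ± 0.01 (SE, adjusted p = 0.0452) on the log2(value + 1) scale, which understates the change of so low a gene; on recovered reads edgeR gave 0.96 (adjusted p = 0.00852). Leaving out any 1 of 7 of the 8 mice raised the adjusted p to between 0.0563 and 0.101, and the call held without KO mouse 8.

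KHK and PDK2, which fell in rats, were lower on average in KO mice without passing the test. KHK, the fructokinase that traps fructose in the cell, ranged from 8.67 to 12.6 scaled units in KO and from 12.2 to 21.5 in WT mice (log2 change -0.59 ± 0.19 SE, limma adjusted p = 0.14). PDK2, a kinase that switches pyruvate dehydrogenase off, ranged from 6.84 to 7.38 in KO and from 7.73 to 9.68 in WT mice, without overlap (-0.24 ± 0.06 SE, adjusted p = 0.0914). On recovered reads PDK2 passed with edgeR (adjusted p = 0.0302) and with DESeq2 (0.00388), and KHK passed with DESeq2 only (0.0246). The other 35 members had changes between -0.31, for PKLR, and 0.09, for PKM, on the log2(value + 1) scale, which shrinks the changes of scarce genes. On recovered reads edgeR gave them between -0.58 ± 0.39 for PKLR and 0.46 ± 0.28 for HK3 (SE), with 0 passing by edgeR or DESeq2.

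**Figure D1:**
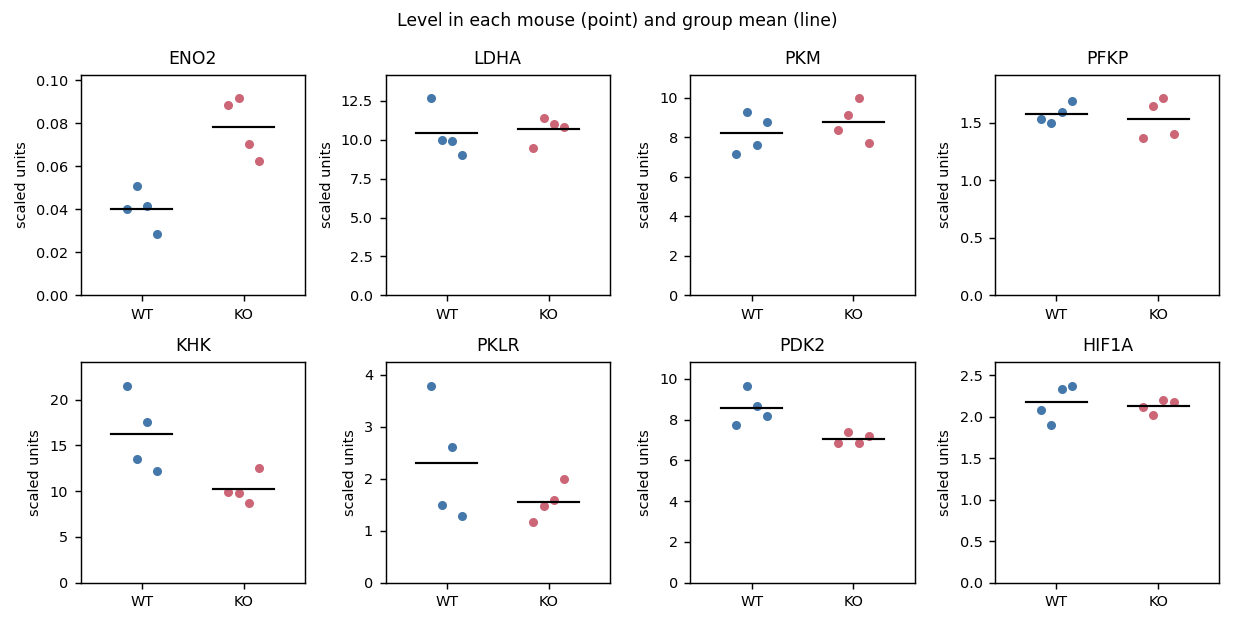
Level in scaled units (vertical axis, from 0) of 8 genes in each of 4 WT and 4 KO mice, with points for animals and lines for group means. ENO2 and PDK2 show no overlap between the groups, while LDHA, PKM, PFKP, PKLR, KHK and HIF1A overlap.

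Over all 16 rats, 9 of the 32 members tested passed, 3 higher and 6 lower. LDHA, PKM and PFKP rose, and KHK, PKLR, PDK2, PFKFB4, PFKFB2 and ENO1 fell. Both directions thus occurred within glycolysis, and the median log2 change of the members was -0.03 against -0.02 over all symbols. The count is 28.1% of the members tested, beside 27.5% of all 11584 symbols tested (15.2% higher and 12.3% lower), so as a group these genes were called about as often as any others. Number ranges of rats gave unequal counts. Among rats 17 to 24, 0 of 32 members rose and 3 fell (9.38%), where 7.26% of symbols passed, 5.07% higher and 2.19% lower; at an unadjusted p under 0.05, 3 were higher and 7 lower, and with DESeq2 1 rose and 5 fell. Among rats 25 to 32, 5 of 33 rose and 8 fell (39.4%), where 43.8% of symbols passed, 21.8% higher and 22.1% lower. The 3 members that fell in the lower range, KHK, PKLR and PDK2, also fell in the higher one. Among all symbols tested, KO and WT did not overlap for 5.84% over all rats. That share was 13.7% in rats 17 to 24 and 40.3% in rats 25 to 32, so separation in the higher range was common.

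**Figure D2:**
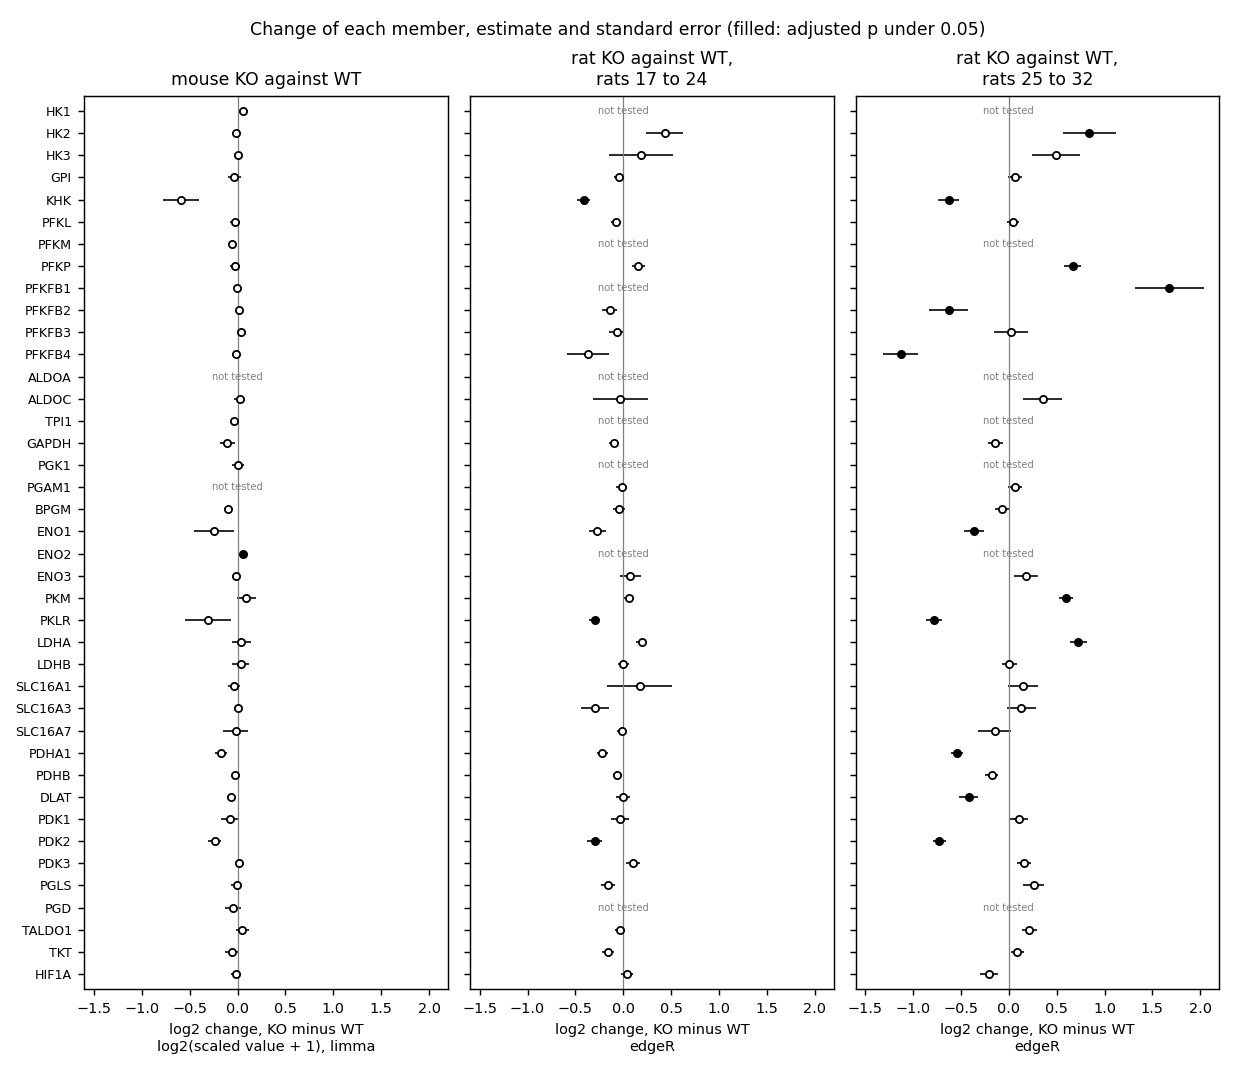
Log2 change between KO and WT (horizontal axis) of each of the 40 members (vertical axis) in mice, in rats 17 to 24 and in rats 25 to 32, as estimate and standard error, filled where the adjusted p is under 0.05. Filled points number 1, 3 and 13 in the panels from left to right, and the mouse panel is on the log2(value + 1) scale.

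The rows of 4 genes in the rat table held few reads, and those of ALDOA and TPI1 could not be read as levels of their genes. ALDOA was listed at 0 to 1 read and TPI1 at 4 to 14 reads per rat, although aldolase and triose phosphate isomerase are needed in every cell. ENO2 was listed at 0 to 4 reads per rat, and whether this is its true level cannot be told here. The rows of ALDOA, TPI1 and ENO2 did not pass the filter on low counts. PFKFB1 held 4 to 24 reads and passed the filter in rats 25 to 32 and in the fit of the 4 groups, not over all rats or in rats 17 to 24. RefSeq names 9 pseudogenes after Aldoa and 3 after Tpi1 in the rat, and it names 81 after Gapdh, 31 after Eno1, 30 after Ldha and 19 after Pkm; how the counting treated such copies is not given in the sources used here, so the levels of these genes carry that uncertainty. Values that were not whole reads occurred for GAPDH and ENO1 in mice and for PFKFB4, TPI1 and ENO2 in rats.

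At the entry of hexoses, KHK fell in rats with no overlap between genotypes, as was so for 5.84% of all symbols tested. It ranged from 423 to 576 CPM in WT rats, with a median of 479, and from 261 to 372 in KO rats, with a median of 342. The log2 change was -0.53 ± 0.08 (SE, edgeR adjusted p = 0.00015), with -0.41 ± 0.07 in rats 17 to 24 and -0.63 ± 0.11 in rats 25 to 32. HK2, the inducible hexokinase, was scarce at 2.22 to 6.499 CPM in WT and 3.84 to 9.89 in KO rats, and it rose in rats 25 to 32 (0.84 ± 0.28, adjusted p = 0.0307) although the ranges there overlapped, from 2.22 to 4.13 in WT and from 3.84 to 8.51 in KO rats. Over all rats HK2 did not pass (0.58 ± 0.24, adjusted p = 0.0741), while with number range as a covariate (0.62, adjusted p = 0.0134) and with DESeq2 (adjusted p = 0.049) it did. The call in rats 25 to 32 was lost on leaving out WT rat 27, WT rat 29, KO rat 28 or KO rat 30, with adjusted p between 0.0686 and 0.0809. HK3 (0.36 ± 0.25) and GPI, the isomerase that follows hexokinase (0.01 ± 0.06), did not pass over all rats.

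Among the phosphofructokinases, which commit the sugar to glycolysis, the platelet form PFKP rose and the liver form PFKL did not pass. PFKP was at 48.3, 45.8, 40.7 and 43.2 CPM in WT rats 17, 19, 21 and 23 and at 49.3, 53.0, 46.2 and 48.8 in KO rats 18, 20, 22 and 24. It was at 40.8, 30.7, 32.6 and 33.6 in WT rats 25, 27, 29 and 31 and at 53.7, 55.7, 56.9 and 52.0 in KO rats 26, 28, 30 and 32. The genotypes overlapped in the lower number range and stood apart in the higher one, where the WT rats were low. The log2 change over all rats was 0.40 ± 0.09 (SE, edgeR adjusted p = 0.0031), with 0.16 ± 0.07 (adjusted p = 0.18) in rats 17 to 24 and 0.67 ± 0.09 (adjusted p = 0.00022) in rats 25 to 32. PFKL gave -0.02 ± 0.07 over all rats.

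Of the bifunctional enzymes that set fructose-2,6-bisphosphate, PFKFB4 and PFKFB2 fell. PFKFB4 ranged from 1.57 to 4.63 CPM in WT rats, with a median of 3.64, and from 1.29 to 2.41 in KO rats, with a median of 2.06 (log2 change -0.81 ± 0.21 SE, edgeR adjusted p = 0.0075). PFKFB2 ranged from 22.2 to 33.4 in WT, with a median of 25.5, and from 11.8 to 24.1 in KO rats, with a median of 22.1 (-0.38 ± 0.13, adjusted p = 0.0383). Both overlapped over all rats, and PFKFB4 stood apart in rats 25 to 32, at 4.19 to 4.63 against 1.29 to 2.40. The PFKFB2 call was lost on leaving out any of 8 single rats, with adjusted p between 0.0574 and 0.0933. PFKFB3 gave -0.04 ± 0.15, and PFKFB1, at 0.375 to 0.769 CPM in KO and 0.129 to 0.260 in WT rats 25 to 32, rose there by 1.68 ± 0.36 on the log2 scale (adjusted p = 0.0036) from few reads.

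The triose steps in the middle of the pathway did not pass between genotypes in either species. Of 4 tested in rats, 0 passed by edgeR over all rats, with 0 at an unadjusted p under 0.05, and log2 changes ran from -0.12 ± 0.08 for GAPDH to 0.15 ± 0.18 for ALDOC, with 0.02 ± 0.09 for PGAM1 and -0.06 ± 0.06 for BPGM, the enzyme of 2,3-bisphosphoglycerate in red cells. DESeq2 called 0 as well, and with number range as a covariate GAPDH passed at -0.12 (adjusted p = 0.0499). In mice TPI1, GAPDH, PGK1, BPGM and ALDOC gave between -0.11 and 0.02.

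At the end of glycolysis the pyruvate kinases moved in opposite directions, PKM up and PKLR down. PKM was at 161, 160, 161 and 153 CPM in WT rats 17, 19, 21 and 23 and at 174, 165, 151 and 166 in KO rats 18, 20, 22 and 24. It was at 133, 115, 124 and 126 in WT rats 25, 27, 29 and 31 and at 172, 210, 180 and 191 in KO rats 26, 28, 30 and 32. The lower number range thus overlapped (0.06 ± 0.05 SE, edgeR adjusted p = 0.62), and the higher one did not (0.59 ± 0.07, adjusted p = 0.00014). Over all rats the log2 change was 0.31 ± 0.08 (adjusted p = 0.0094).

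PKLR was at 62.9, 70.1, 65.8 and 59.8 CPM in WT rats 17, 19, 21 and 23 and at 51.9, 55.4, 50.7 and 51.5 in KO rats 18, 20, 22 and 24. In rats 25, 27, 29 and 31, all WT, it was at 93.7, 94.9, 94.3 and 107, and in KO rats 26, 28, 30 and 32 at 58.1, 61.1, 47.1 and 61.0. KO lay below WT in both number ranges, and WT rats 25 to 32 were the highest of the 4 groups. The log2 change was -0.57 ± 0.12 (SE, edgeR adjusted p = 0.0018) over all rats, -0.30 ± 0.06 (adjusted p = 0.0088) in rats 17 to 24 and -0.78 ± 0.09 (adjusted p = 7.1e-05) in rats 25 to 32. Red cells also contain PKLR. Erythrocyte markers summed to 503 to 717 CPM in WT and 348.6 to 770.6 in KO rats. Of 5 tested, 0 passed by edgeR (0 at an unadjusted p under 0.05 and 0 by DESeq2), and 0 had a log2 change above 0. Their median log2 change was -0.23, against -0.02 over all symbols, and their part in the PKLR change was not tested.

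ENO1, the general enolase, ranged from 1376 to 2174 CPM in WT rats, with a median of 1755, and from 1211 to 1660 in KO rats, with a median of 1357. Within each number range KO lay below WT, although the genotypes overlapped over all rats. The log2 change was -0.32 ± 0.10 (SE, edgeR adjusted p = 0.0213), and the call was lost without WT rat 29 (adjusted p = 0.0529) or WT rat 31 (0.0519). In rats 17 to 24 ENO1 missed the threshold (edgeR adjusted p = 0.102) and passed with DESeq2 (-0.28, adjusted p = 0.0393). ENO3, the muscle form, gave 0.12 ± 0.09 over all rats.

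Of the lactate genes, LDHA rose while LDHB, its partner subunit, did not pass the test. LDHA was at 226, 201, 203 and 202 CPM in WT rats 17, 19, 21 and 23 and at 237, 246, 220 and 243 in KO rats 18, 20, 22 and 24. It was at 237, 206, 229 and 247 in WT rats 25, 27, 29 and 31 and at 354, 420, 330 and 413 in KO rats 26, 28, 30 and 32. The KO rats of the higher number range stood above every other rat. The log2 change was 0.49 ± 0.13 (SE, edgeR adjusted p = 0.0099) over all rats, 0.20 ± 0.06 (adjusted p = 0.0638) in rats 17 to 24 and 0.72 ± 0.09 (adjusted p = 0.00012) in rats 25 to 32. In rats 17 to 24 LDHA passed with DESeq2 (0.19, adjusted p = 0.0351) and without WT rat 17 (0.23, edgeR adjusted p = 0.0267).

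LDHB ranged from 936 to 1141 CPM in WT and from 909 to 1092 in KO rats, with a log2 change of 0.00 ± 0.06. The monocarboxylate carriers that move lactate and pyruvate across the plasma membrane did not pass in any KO against WT comparison, at 0.15 ± 0.17 for SLC16A1, -0.08 ± 0.12 for SLC16A3 and -0.07 ± 0.15 for SLC16A7 over all rats.

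The balance of isozymes was compared directly as the log2 ratio of CPM within each animal. PKM over PKLR was 0.86 higher in KO than in WT rats, at 1.68 ± 0.13 (SD, n = 8) against 0.82 ± 0.51 (SD, n = 8), by a two-sided exact permutation test with p = 0.0001554, the smallest it can give (adjusted p = 0.00124 over 8 ratios). LDHA over LDHB was 0.45 higher, at -1.79 ± 0.39 (SD, n = 8) against -2.24 ± 0.13 (SD, n = 8) (two-sided exact permutation p = 0.00699, adjusted p = 0.028). Within number ranges the PKM over PKLR difference was 0.35 and 1.37, and the LDHA over LDHB difference 0.19 and 0.71, each with all 4 KO rats above all 4 WT rats and exact permutation p = 0.0286, the smallest that 4 against 4 allows. In mice PKM over PKLR differed by 0.55 (exact permutation p = 0.286), from 0.20 without WT mouse 1 to 0.81 without WT mouse 7, and LDHA over LDHB by 0.01 (exact permutation p = 0.943). The other ratios, HK2 over HK1 and PFKP over PFKM in mice and SLC16A3 over SLC16A1 in both species, did not pass, with differences between -0.27 and 0.23; HK2 over HK1 went from -0.21 to 0.21 without WT mouse 7. Counting of copies, noted above for LDHA and PKM, bears on the level of these ratios.

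**Figure D3:**
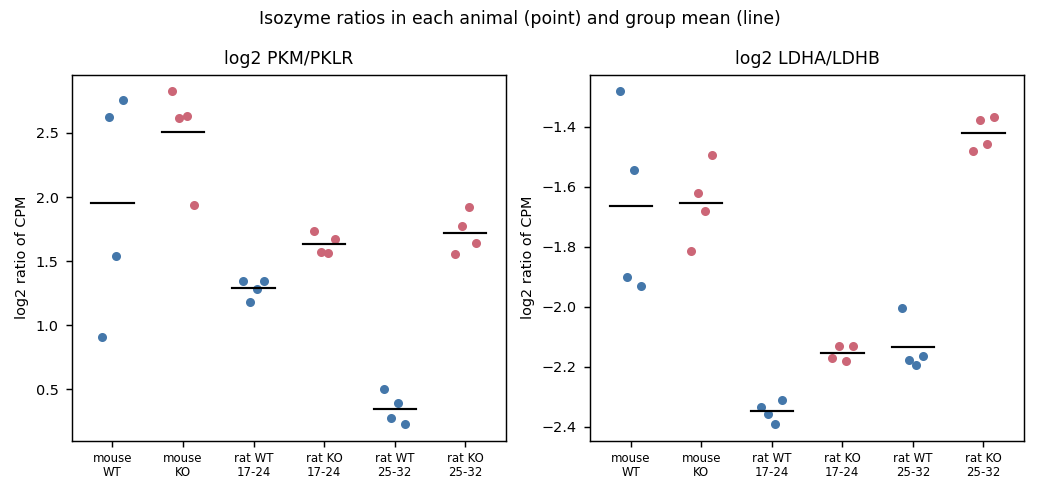
Log2 ratio of CPM (vertical axis) of PKM to PKLR and of LDHA to LDHB in each animal, with points for animals and lines for group means. Both ratios are higher in all KO rats than in the WT rats of the same number range, and in mice the groups overlap.

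Pyruvate dehydrogenase, which feeds pyruvate to the mitochondria, and its kinases included several that fell. PDK2 was at 335, 369, 447 and 416 CPM in WT rats 17, 19, 21 and 23 and at 316, 301, 333 and 317 in KO rats 18, 20, 22 and 24. It was at 457, 520, 512 and 498 in WT rats 25, 27, 29 and 31 and at 318, 316, 273 and 294 in KO rats 26, 28, 30 and 32. Every KO rat lay below every WT rat. The log2 change was -0.53 ± 0.08 (SE, edgeR adjusted p = 0.00028) over all rats, -0.30 ± 0.08 (adjusted p = 0.0457) in rats 17 to 24, where leaving out any of 6 of the 8 rats lost the call, and -0.73 ± 0.07 (adjusted p = 3.5e-05) in rats 25 to 32. PDK1 (0.02 ± 0.08) and PDK3 (0.13 ± 0.06, adjusted p = 0.11) did not pass.

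Of the subunits of the complex, PDHA1 and DLAT fell in rats 25 to 32 and PDHB did not pass there. PDHA1, a subunit of the first enzyme of the complex, was at 632, 565, 666 and 625 CPM in WT rats 17, 19, 21 and 23 and at 507, 530, 557 and 534 in KO rats 18, 20, 22 and 24. It was at 479, 521, 462 and 497 in WT rats 25, 27, 29 and 31 and at 350, 336, 334 and 327 in KO rats 26, 28, 30 and 32. KO lay below WT within each number range, and both genotypes were lower in the higher range. PDHA1 fell by 0.54 ± 0.06 on the log2 scale in rats 25 to 32 (SE, edgeR adjusted p = 8.4e-05), missed the threshold in rats 17 to 24 (-0.22 ± 0.06, adjusted p = 0.0511; 0.00781 to 0.0462 under the 4 other settings run) and over all rats (-0.36 ± 0.13, adjusted p = 0.0567), and passed over all rats with number range as a covariate (-0.38, adjusted p = 8.84e-05).

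DLAT, the acetyl-transferring subunit, was at 116, 109, 98.7 and 121 CPM in WT rats 17, 19, 21 and 23 and at 105, 105, 120 and 112 in KO rats 18, 20, 22 and 24. It was at 115, 133, 111 and 97.9 in WT rats 25, 27, 29 and 31 and at 91.7, 85.0, 89.7 and 75.1 in KO rats 26, 28, 30 and 32. Only the higher number range separated the genotypes (-0.42 ± 0.10 SE, edgeR adjusted p = 0.0068; rats 17 to 24, 0.00 ± 0.07). Over all rats DLAT missed the threshold (adjusted p = 0.0975) and passed with number range as a covariate (-0.22, adjusted p = 0.0409). PDHB, the partner of PDHA1, gave -0.13 ± 0.05 over all rats (adjusted p = 0.0677) and passed with the covariate (adjusted p = 0.0423) and with DESeq2 (0.0273). In rats 25 to 32 PDHB gave -0.18 ± 0.07 (adjusted p = 0.0564), and it passed there in a fit of all 4 groups (adjusted p = 0.018) and without a filter on low counts (0.0457).

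Of the pentose phosphate pathway, which makes NADPH and ribose, the members PGLS, PGD, TALDO1 and TKT did not pass between genotypes by edgeR in rats, where PGD was not analysed here, or by limma in mice. Over all rats PGLS, TALDO1 and TKT were at 0.06 ± 0.10, 0.10 ± 0.12 and -0.04 ± 0.06, with 0 of 3 at an unadjusted p under 0.05 and 0 by DESeq2. The number ranges had opposite signs. In rats 17 to 24 the changes were -0.16 ± 0.07 for PGLS, -0.03 ± 0.05 for TALDO1 and -0.16 ± 0.06 for TKT, with 2 of 3 lower at an unadjusted p under 0.05, and in rats 25 to 32 they were 0.26 ± 0.11, 0.21 ± 0.08 and 0.09 ± 0.07, with 2 of 3 higher. The test of the difference between the ranges gave an unadjusted p under 0.05 for 3 of 3 and passed after adjustment for 0 (edgeR adjusted p = 0.0552 for PGLS, 0.0902 for TALDO1 and 0.0598 for TKT), while DESeq2 called PGLS (adjusted p = 0.0313) and TKT (0.0180). In mice PGLS, PGD, TALDO1 and TKT gave -0.06 to 0.05, with 0 of 4 at an unadjusted p under 0.05 and 0 by edgeR or DESeq2 on recovered reads. In rats 25 to 32 TALDO1 (adjusted p = 0.0505) and PGLS (adjusted p = 0.083) missed the threshold, and both passed there in a fit of all 4 groups.

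HIF1A itself did not pass over all rats, in either number range alone or in mice. It ranged from 93.2 to 119 CPM in WT rats, with a median of 98.96, and from 77.5 to 110 in KO rats, with a median of 98.7 (log2 change -0.08 ± 0.07 SE, edgeR adjusted p = 0.43). In mice it ranged from 1.90 to 2.38 scaled units in WT and from 2.03 to 2.205 in KO animals (-0.02 ± 0.05 SE, limma adjusted p = 0.96). In rats 25 to 32 it gave -0.21 ± 0.10 (adjusted p = 0.11), and it passed there in a fit of all 4 groups (adjusted p = 0.0372). A list of 17 other HIF regulators and textbook targets gave 0 of 16 by limma in mice (7 at an unadjusted p under 0.05, 2 by edgeR and 3 by DESeq2 on recovered reads). In rats 1 of 14 rose and 2 fell (21.4%, beside 27.5% of all symbols), P4HA2, a collagen prolyl hydroxylase subunit, at 0.33 ± 0.09, and BNIP3, a mitophagy receptor, at -0.25 ± 0.05 and ANKRD37 at -0.41 ± 0.14, all chosen after their values were seen because the count was small. In rats 17 to 24 the list gave 0 of 14 by edgeR (3 lower at an unadjusted p under 0.05 and 1 lower by DESeq2). In rats 25 to 32, 7 of 14 passed, 1 higher and 6 lower (beside 43.8% of all symbols), and the falls included EPAS1 (-0.52 ± 0.15, adjusted p = 0.0162) and ARNT (-0.41 ± 0.13, adjusted p = 0.0287), subunits of HIF transcription factors, and VEGFA, an endothelial growth factor (-0.35 ± 0.09, adjusted p = 0.0086), named after their values were seen.

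**Figure D4:**
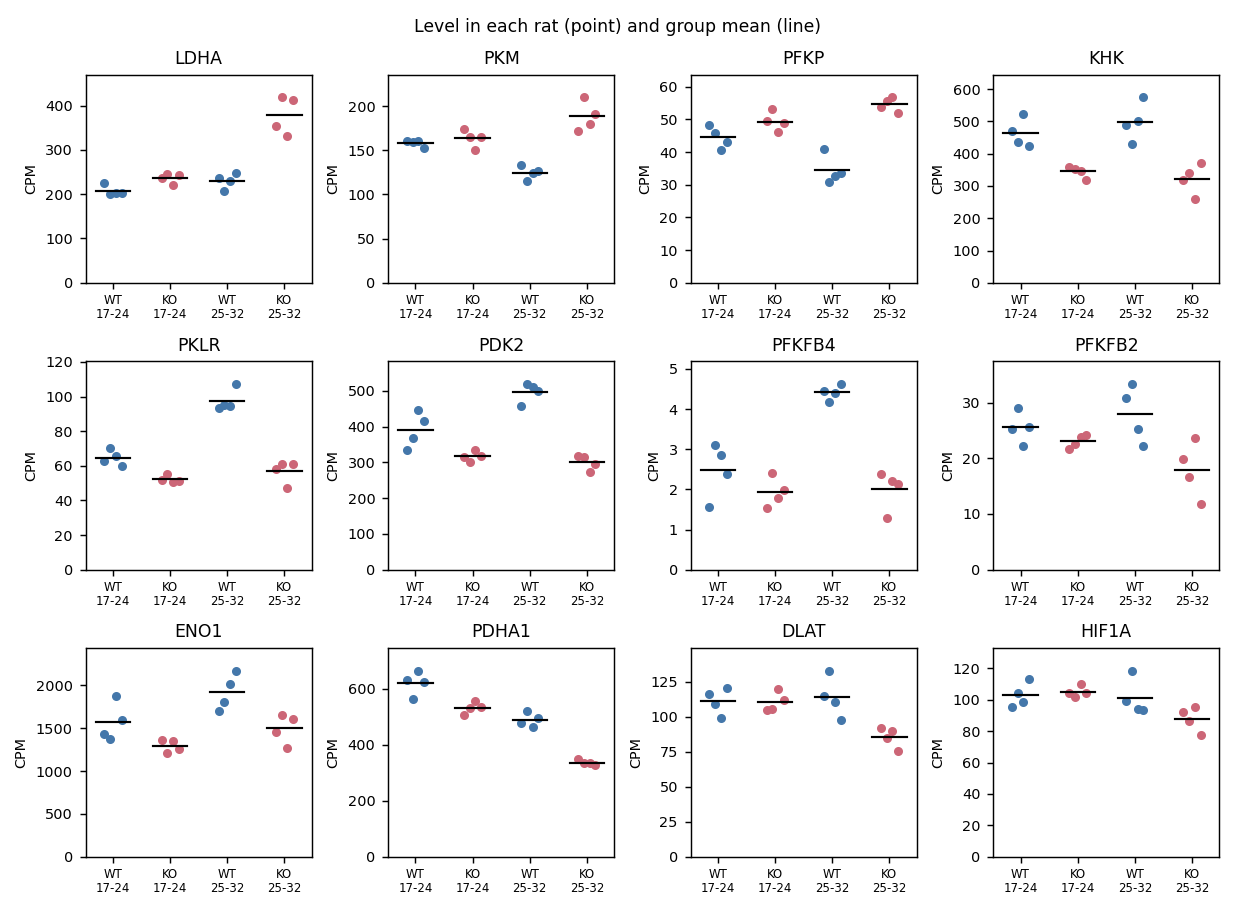
Level in CPM (vertical axis, from 0) of 12 genes in each rat, in 4 groups by genotype and animal number, with points for animals and lines for group means. LDHA is highest in KO rats 25 to 32, PKM and PFKP are lowest in WT rats 25 to 32, and PKLR and PDK2 are highest in WT rats 25 to 32.

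Whether the KO effect differed between the number ranges was tested as an interaction in a fit of the 4 rat groups, and 7 of 33 members passed (21.2%, beside 14.7% of all 11839 symbols). The difference of log2 changes, rats 25 to 32 minus rats 17 to 24, was 0.51 ± 0.11 for PFKP, 0.54 ± 0.09 for PKM, 0.53 ± 0.11 for LDHA, -0.48 ± 0.11 for PKLR, -0.32 ± 0.08 for PDHA1, -0.41 ± 0.12 for DLAT and -0.42 ± 0.11 for PDK2 (SE; edgeR adjusted p from 0.0016 to 0.036). For these 7 genes, the KO effect was further from 0 in rats 25 to 32.

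The groups behind these differences were not alike. Between WT rats, 6 of 33 members were higher and 6 lower in numbers 25 to 32 than in 17 to 24 (36.4%, beside 21.1% of symbols, 11.7% higher and 9.43% lower). Between KO rats, 8 were higher and 5 lower (39.4%, beside 47.0% of symbols, 24.2% higher and 22.8% lower). PKLR rose by 0.59 ± 0.08 and PDK2 by 0.34 ± 0.08 between the WT groups, while between the KO groups PKLR gave 0.11 ± 0.08 and PDK2 -0.08 ± 0.08, which did not pass.

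PFKP fell by 0.37 ± 0.08 on the log2 scale between the WT groups and gave 0.14 ± 0.08 between the KO groups. PKM fell by 0.35 ± 0.07 between WT groups and rose by 0.20 ± 0.07 between KO groups. LDHA and DLAT differed the other way round: LDHA gave 0.15 ± 0.08 between WT and rose by 0.68 ± 0.08 between KO groups, and DLAT gave 0.04 ± 0.09 between WT and fell by 0.37 ± 0.09 between KO groups. PDHA1 fell in both, by 0.34 ± 0.06 and 0.66 ± 0.06.

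The other members that differed between WT groups were PFKFB4 (0.82 ± 0.20), GAPDH (0.30 ± 0.06), TALDO1 (0.29 ± 0.07) and PGAM1 (0.25 ± 0.07), which were higher, and HK2 (-0.83 ± 0.26), PFKFB3 (-0.51 ± 0.14) and SLC16A7 (-0.44 ± 0.14), which were lower. Between KO groups they were TALDO1 (0.54 ± 0.07), PGLS (0.45 ± 0.10), PGAM1 (0.33 ± 0.07), PFKL (0.27 ± 0.06), GAPDH (0.26 ± 0.06) and GPI (0.21 ± 0.06), which were higher, and SLC16A7 (-0.57 ± 0.14), PFKFB3 (-0.42 ± 0.14) and HIF1A (-0.26 ± 0.08), which were lower. Marker sums differed between the 4 groups as well. Proximal tubule markers were at 23530 to 25970 CPM in WT rats 17 to 24, 30060 to 33960 in WT rats 25 to 32, 19690 to 20760 in KO rats 17 to 24 and 15510 to 19480 in KO rats 25 to 32. Macrophage and myeloid markers were at 163.9 to 221.1, 240.2 to 296, 264.2 to 288.9 and 464.6 to 654.6 CPM in the same order. Distal nephron and collecting duct markers were at 4196 to 4997, 3356 to 4038, 4509 to 4958 and 4390 to 5272 CPM in that order, and between WT groups 5 of 6 were lower and 1 higher in the higher number range. Markers of endothelium and podocytes were at 1173 to 1316, 879.8 to 1004, 1135 to 1200 and 716.6 to 847.7 CPM, with 7 of 9 lower between WT groups and 8 of 9 between KO groups. Over all symbols 11.7% were higher and 9.43% lower between WT groups, and 24.2% were higher and 22.8% lower between KO groups. The part of these markers in the differences was not tested.

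**Figure D5:**
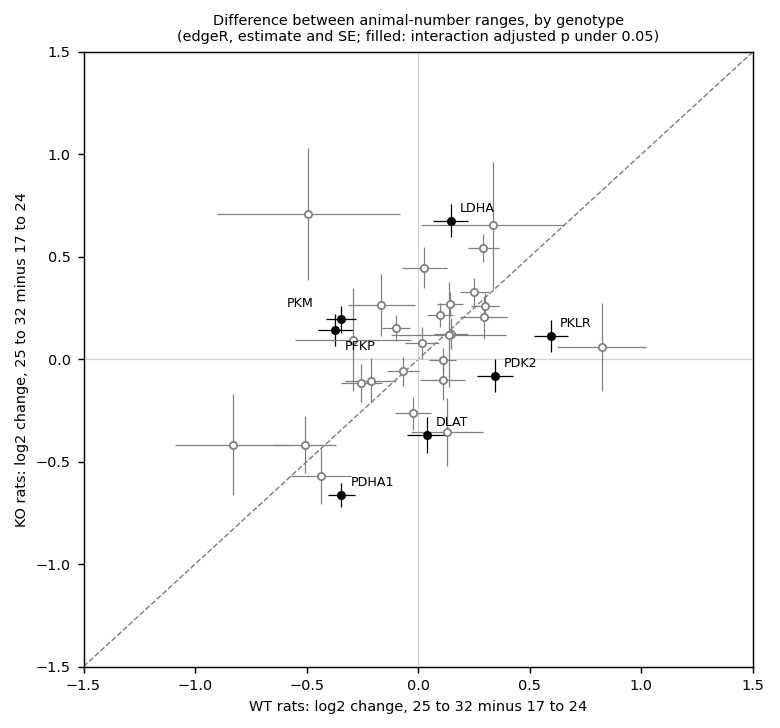
Log2 change between rats 25 to 32 and rats 17 to 24 in WT rats (horizontal axis) and in KO rats (vertical axis) for each tested member, with standard errors; the dashed line marks equal change and filled points passed the interaction test. PKLR and PDK2 lie right of the line and LDHA, PKM and PFKP above it, while PDHA1 and DLAT lie below it.

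The species were also compared in 1 model over 10681 symbols with both tables on the mouse scale. Of 31 members tested, 0 differed in their KO effect between rats and mice (limma, adjusted p under 0.05), 2 at an unadjusted p under 0.05, and 0 by edgeR on reads, beside 3.16% of all symbols. LDHA gave a rat minus mouse difference of 0.38 ± 0.18 (adjusted p = 0.27) and PFKP 0.24 ± 0.07 (adjusted p = 0.0686), so rises called in rats and not in mice were not shown to differ between the species.

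The rest of the pathway was read from a list of 38 further symbols of glycolysis, lactate and pyruvate handling, the pentose phosphate pathway, fructose and polyol handling and gluconeogenesis, in which G6PC and G6PC1 name 1 gene. In mice 0 of 36 rose and 1 fell, namely FBP1, the gluconeogenic fructose bisphosphatase (-0.38 ± 0.08 SE, limma adjusted p = 0.0482). At an unadjusted p under 0.05, 2 were higher and 8 lower, and on recovered reads edgeR called 4 and DESeq2 7, all lower. In rats 4 of 27 rose and 14 fell (66.7%, beside the 27.5% of all symbols), with a median log2 change of -0.17. The falls were largest for PCK1, which makes phosphoenolpyruvate for new glucose (-1.05 ± 0.22 SE, edgeR adjusted p = 0.00187), SLC16A4, a member of the monocarboxylate carrier family (-0.80 ± 0.13), FBP1 (-0.67 ± 0.11) and PC, pyruvate carboxylase (-0.66 ± 0.10). FBP2, the muscle bisphosphatase, rose by 0.71 ± 0.18, and AKR1B1, aldose reductase, which turns glucose into sorbitol, by 0.58 ± 0.10. Of 4 gluconeogenesis genes tested in rats 1 rose and 3 fell, of 3 fructose and polyol genes 1 rose and 2 fell, of 6 further pentose phosphate genes 1 rose and 2 fell, and of 14 further glycolysis, pyruvate and lactate genes 1 rose and 7 fell. In rats 17 to 24, 1 of the 27 rose and 5 fell (22.2%, beside 7.26% of all symbols). In rats 25 to 32, 5 rose and 13 fell (66.7%, beside 43.8%). This list was chosen with earlier results of these data known, so its shares are not independent of them.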

How the data were processed

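Libraries of 24 animals, 1 per animal, were grouped by the genotype in the labels. Stranded mRNA libraries are named in the labels, and the submitters' processing notes name bcl2fastq 2.20, STAR 2.7.3, DESeq2 1.24.0, R 3.6.1 and the builds mm10 and rn5, with no role for each. The mouse values deposited by the authors are a scaled signal for each gene, which the values show to be reads plus 0.5 over the library's 75th percentile plus 0.5; reads were recovered from it and 99% of values were whole within 0.01. The rat values deposited by the authors are estimated counts, equal to reads plus 1/6, of which 97.7% were whole; they were rounded. Values not whole were found for 317 mouse and 556 rat symbols.

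Mouse values were tested with limma 3.58.1 (trend, robust) on log2(value + 1) without a filter, and rat counts with edgeR 4.0.16 (quasi-likelihood, robust, TMM, its filter on low counts) in R 4.3.3, without covariates; p-values were Benjamini-Hochberg adjusted over all symbols with a threshold of 0.05. Rat levels are CPM on TMM library sizes. Ranges of animal numbers were fitted alone, and together for the interaction. Isozyme ratios used CPM + 0.5 and a two-sided exact permutation test; HK2 over HK1 and PFKP over PFKM in rats and ALDOC over ALDOA in both species could not be computed. Tests on simulated data covered limma and edgeR in mice, edgeR over all rats and in the lower number range, and the interaction. DESeq2 1.42.0, other filters, scalings and pseudocounts, and leaving out each animal were alternatives. All 40 members are named. Values per animal are given for members past the threshold in mice and for those past the interaction. Of the 12 with the largest change past the threshold over all rats, 9 passed. Among these, KHK, PFKFB4, PFKFB2 and ENO1 are given as lowest, median and highest level, as is HIF1A in rats. HIF1A in mice is given as a range. Of the further pathway genes, those past the threshold in mice and the 6 with the largest change past it in rats are named. The members and lists were chosen with earlier results of these data known. The smallest chi-square per degree of freedom between libraries of a group was 8.85, so no library was taken as deposited in duplicate. Separate animals are assumed from the numbers in the labels.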

Additional observations from a re-analysis of the deposited data

Results flagged for a closer look

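A sample far from its group was found in 12 of 142 groups of a member, where chance gives about 5% of groups; the cause was not tested. In mice, WT 7 was high for HK2 (0.103 scaled units, others 0.0181 to 0.0237) and low for GPI (10.4, others 12.7 to 12.8) and GAPDH (11.9, others 14.5 to 14.8). KO 3 was low for GPI (11.4), PFKL (1.53) and GAPDH (11.98). WT 2 was high for PFKM (2.49), WT 1 for BPGM (1.44) and PDK1 (2.55), and KO 6 for SLC16A7 (3.63). In rats, KO 30 was low for KHK (261 CPM, others 320 to 372) and WT 21 high for ALDOC (1.41 CPM, others 0.659 to 0.966). KHK passed over all rats without KO 30 as well.

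The KO effect differed between the number ranges of rats, by the interaction test, for PFKP (0.51), PKM (0.54), LDHA (0.53), PKLR (-0.48), PDHA1 (-0.32), DLAT (-0.41) and PDK2 (-0.42), as log2 differences; the cause was not tested.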

How the results depend on the processing

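No paired analysis was run. The groups compared share no animal number, and the litter of each animal was not given here, so pairing by litter could not be made. Among the KO against WT changes of single members and the isozyme ratios, none that was called reversed under any alternative. For the interaction, the species comparison and the comparisons between number ranges, directions of single members were not compared between settings. In mice the count of members called went from 1 to 0 with a filter on low values, which removes ENO2, to 2 with edgeR and to 3 with DESeq2 on recovered reads, and all-symbol calls went from 751 to 1198 and 1520; leaving out 1 mouse gave 0 to 1 members and 352 to 683 symbols. In rats number range as a covariate gave 14 members (4 higher, 10 lower) in place of 9, adding HK2, PDHA1, PDHB, DLAT and GAPDH. All-symbol calls went from 3180 to 4443 with that covariate. DESeq2 gave 6 members in place of 3 in rats 17 to 24, where all-symbol calls went from 843 to 1216. Leaving out 1 rat gave 7 to 11 members over all rats, where all-symbol calls ran from 2536 to 3478. In rats 17 to 24 it gave 2 to 5 members (5 without WT 17) and 504 to 930 symbols. In rats 25 to 32 it gave 11 to 14 members and 3946 to 5242 symbols. For the interaction it gave 6 to 11 members (11 without KO 30) and 1010 to 2392 symbols against 1745. The rat PKM over PKLR difference stayed between 0.78 and 0.93 and LDHA over LDHB between 0.39 and 0.51, an alternative chosen after seeing the data. Of single members, 513 values kept their side of the threshold under other settings and 22 newly passed; with 1 animal left out 1291 kept it, 15 newly passed and 30 no longer did, the cause of which was not tested. In rats 25 to 32 HK2 lost the call on leaving out any 1 of 4 rats and PFKFB2 any 1 of 3.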
